A study of Rattus norvegicus with 6 samples.

Results

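Matrix metalloproteinases (MMPs) and the tissue inhibitors of metalloproteinases (TIMPs) were followed in primary rat cells from the disc of the jaw (temporomandibular) joint, a fibrous cushion between its bones. The 10 genes were taken by name, with earlier results of these data known, and no cutoff on values was used: the 7 metalloproteinase genes Mmp2, Mmp3, Mmp9, Mmp11, Mmp13, Mmp14 and Mmp19 and the 3 inhibitor genes Timp1, Timp2 and Timp3. All 10 were among the 20675 genes of the deposited table. Cells exposed for 24 h to GSK101, which opens the calcium-permeable channel TRPV4, were compared with control cells that received DMSO, the solvent, for the same 24 h. Each group had 3 libraries of polyadenylated RNA. The dose of GSK101, the strain, sex and age of the rats, and whether replicates came from separate animals or cultures are not given in the sources used here, so p-values measure the spread between these libraries, which may be partly technical.

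MMPs are zinc-dependent proteases made as inactive precursors and switched on outside the cell or at its surface. Together they cut collagens, proteoglycans, elastin and other matrix proteins, and TIMPs bind the active enzymes and block them. In joint tissues the collagenase encoded by Mmp13 and the stromelysin encoded by Mmp3 are known for matrix breakdown in arthritis. The disc is rich in fibrous collagen, so the balance of these enzymes and inhibitors bears on how its matrix is kept.

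Counted reads, recovered from the deposited RPKM values (reads scaled to gene length in kilobases and to the counted reads of the library), came to 43061102 to 45293829 per GSK101 library and 43973072 to 45705238 per control library. Fibroblast transcripts were abundant in all libraries, with 8 of 9 fibroblast and disc markers in the table and a summed level of 6764 to 7986 RPKM with GSK101 and 7479 to 8455 RPKM in controls. Of these 8 genes 4 were called higher and 2 lower, beside 20.1% and 11.9% of all genes tested. Col2a1, the collagen that defines cartilage, had at most 8 reads in any library, and 4 of 7 chondrocyte markers were under the filter on low values. The 3 tested ones were present and not called. Acan had 31.9 RPKM with GSK101 and 33.6 RPKM in controls, Sox9 2.46 and 2.80 RPKM, and Chad 0.541 and 0.546 RPKM. Smooth muscle and pericyte markers had a lower sum with GSK101, 3025 to 3306 RPKM summed over 6 genes, against 5481 to 5694 RPKM in controls. Most of that sum was Acta2, and 4 of 5 tested genes were called lower, where 11.9% of all genes tested were. Des was tested and not called, at 0.869 RPKM with GSK101 and 0.647 RPKM in controls. Rgs5 was under the filter and not tested, at 0.212 RPKM with GSK101 and 0.129 RPKM in controls. All 3 tested skeletal muscle markers were called lower, and the 6 in the table summed to 8.85 to 9.47 RPKM with GSK101 and 14.7 to 16.0 RPKM in controls. Most of that sum was Acta1, at 7.69 RPKM with GSK101 and 12.4 RPKM in controls. Ckm, Myod1 and Myog were under the filter and overlapped between the groups. They averaged 0.0161, 0.130 and 0.0107 RPKM with GSK101 and 0.0469, 0.0540 and 0 RPKM in controls. Endothelial markers were low, at 1.22 to 1.35 RPKM over 6 genes with GSK101 and 0.778 to 1.03 RPKM in controls. Kdr made up most of that sum and was called higher, at 1.01 RPKM with GSK101 and 0.551 RPKM in controls. The other 5 were under the filter. In such bulk samples, fewer cells of a type and less RNA per cell cannot be told apart.

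TIMP transcripts far outnumbered MMP transcripts in every library. Timp1 averaged 1564 ± 97.3 RPKM with GSK101 and 1368 ± 30.2 RPKM in controls (SD, n = 3 each), which placed it at rank 57 of all 20675 genes by mean level, and Timp2 stood at rank 116. The proteases followed with Mmp2 at rank 539, Mmp14 at 985 and Mmp19 at 2353. Timp3 lay at rank 2928, Mmp3 at 6043, Mmp11 at 11467, Mmp13 at 12767 and Mmp9 at 15023. RPKM is per length, so levels of these genes can be set against each other. The ranges of neighbours in this order did not overlap in either group from Timp1 down to Mmp19. Mmp19 and Timp3 overlapped in the control libraries but not in the GSK101 libraries, and Mmp11 and Mmp13 overlapped in the GSK101 libraries but not in the controls.

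**Figure D1:**
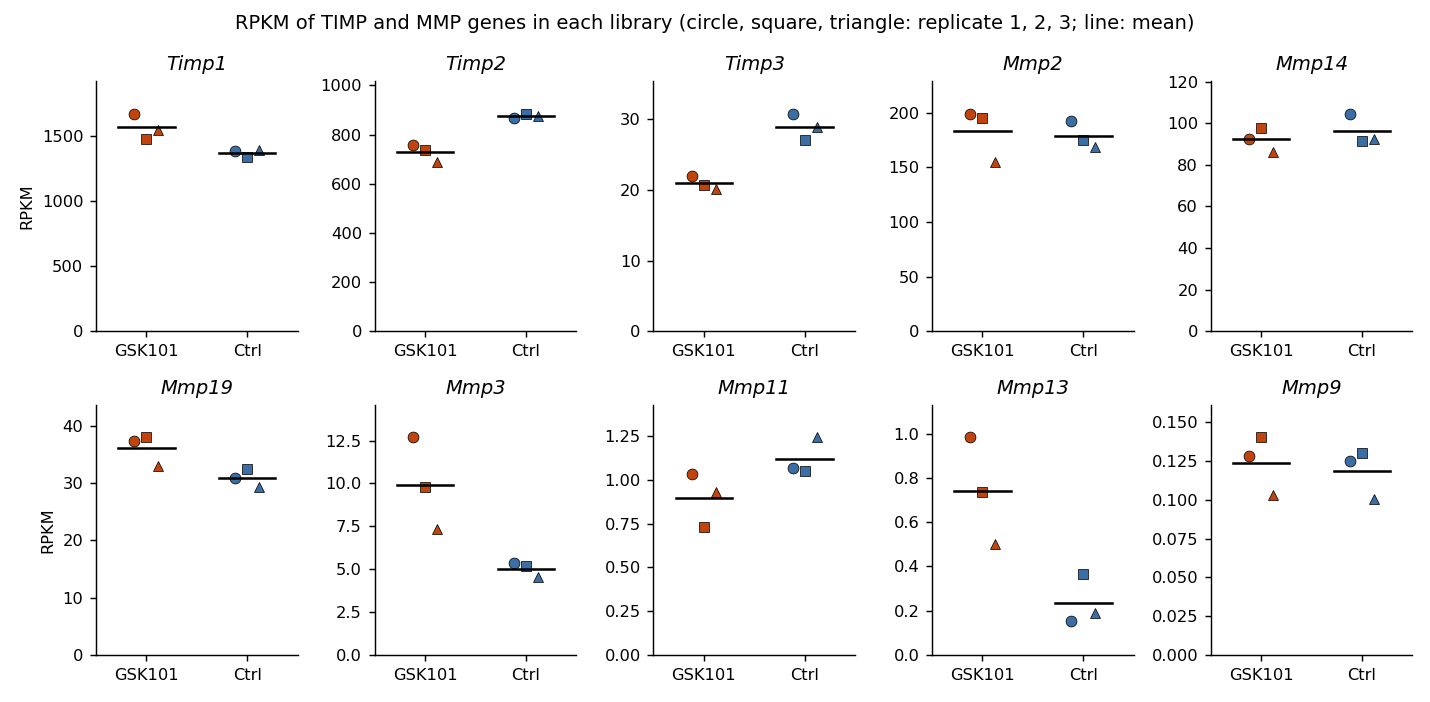
RPKM of the 3 TIMP and 7 MMP genes in each library, GSK101 left and Ctrl right, on axes that start at 0; each symbol is 1 library and each line the mean of 3. Mmp3 lay between 7.33 and 12.7 in GSK101 libraries and between 4.52 and 5.34 in control libraries, while Timp2 and Timp3 lay lower in every GSK101 library than in any control library.

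With GSK101, Mmp3, Mmp19 and Timp1 were higher and Timp2 and Timp3 were lower, whereas the gelatinase gene Mmp2, the membrane-type protease gene Mmp14 and Mmp11 did not pass the test. Changes were tested with limma on log2(RPKM + 0.5), and a gene was called at a Benjamini-Hochberg adjusted p under 0.05 over all 12801 genes tested. A gene was tested if it reached an RPKM of 0.5 in at least 3 of the 6 libraries. Of the 10 genes 8 were tested, and all 8 were above that level in both groups. Of these 8, 3 were called higher and 2 lower, where 31.9% of all genes tested were called, 20.1% higher and 11.9% lower. GSK101 and control libraries were fully separated for 6 of the 8, and 47.3% of all genes tested were. Mmp13 and Mmp9 were below that level in too many libraries and are described from their values. The changes of the 5 called genes ranged from -0.46 to 0.89 on the log2 scale, and the median absolute change of all genes called was 0.35.

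**Figure D2:**
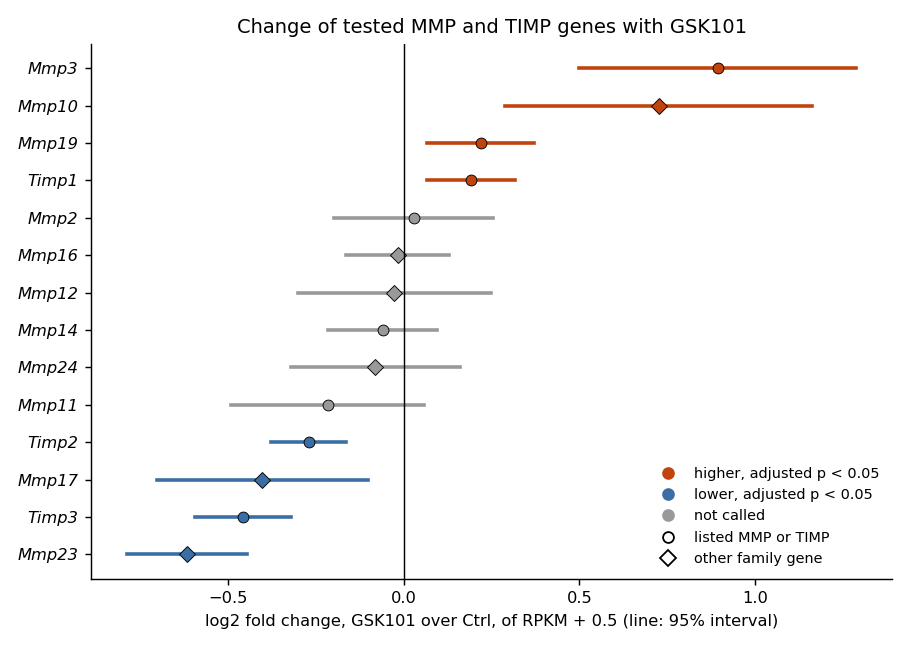
Log2 fold change of RPKM + 0.5, GSK101 over Ctrl, for the 14 tested MMP genes and TIMPs, with 95% intervals from limma; circles are the 8 genes of the set and diamonds 6 other MMP genes. Mmp3 and Mmp10 had the highest estimates, at 0.89 and 0.72, and Timp3 and Mmp23 the lowest, at -0.46 and -0.62.

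Mmp3 encodes a stromelysin, which cuts proteoglycans, fibronectin and several collagens and activates other MMP precursors. Its RPKM was 12.7, 9.80 and 7.33 in GSK101 replicates 1, 2 and 3, against 5.34, 5.17 and 4.52 in control replicates 1, 2 and 3. Every GSK101 library lay above every control library, and the GSK101 libraries differed more among themselves than the controls did. The ratio of the means was 1.98, and the log2 fold change was 0.89 (SE 0.17, 95% interval 0.50 to 1.29, adjusted p = 0.00621) on 539 to 965 reads with GSK101 and 341 to 417 reads in controls. On the Rnor_6.0 build of the deposited table, Mmp3 lies on chromosome 8 from 5676665 to 5698579 on the plus strand, and no exon of another gene of the table overlaps its exons.

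Mmp13 encodes a collagenase that cuts fibrillar collagen and is a marker of hypertrophic and osteoarthritic cartilage. Its transcripts were scarce, with 0.984, 0.738 and 0.4998 RPKM in GSK101 replicates 1, 2 and 3, against 0.151, 0.367 and 0.191 RPKM in control replicates 1, 2 and 3. These values come from 56 to 114 reads per GSK101 library and 18 to 42 reads per control library. The groups did not overlap, and the ratio of the means was 3.13. Mmp13 lies on chromosome 8 from 5522739 to 5533018 on the plus strand. Only GSK101 replicates 1 and 2 reached the filter of 0.5, so Mmp13 was left out of the limma test. The exact two-sided permutation test gave p = 0.1, the smallest value that 3 against 3 libraries allow. With no filter beyond a value above 0, limma gave a log2 fold change of 0.74 and an adjusted p of 0.0358.

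Mmp3 and Mmp13 belong to a cluster of MMP genes on chromosome 8, where the table lists Mmp13, Mmp12, Mmp1b, Mmp3, Mmp10, Mmp8 and Mmp7 in that order within 378 kb. Mmp10, a second stromelysin gene 35.8 kb from Mmp3, had 2.24, 2.13 and 1.20 RPKM in GSK101 replicates 1, 2 and 3, against 0.938, 1.01 and 0.744 RPKM in control replicates 1, 2 and 3. It was called higher, with a ratio of the means of 2.06 and a log2 fold change of 0.72 (adjusted p = 0.0215). The call of Mmp10 was lost without the filter on low values and without GSK101 replicate 1 or 2 or control replicate 3, and its adjusted p ran from 0.00320 to 0.0722 over the alternatives. Mmp12, the macrophage elastase gene between Mmp13 and Mmp3, averaged 17.3 ± 2.61 RPKM with GSK101 and 17.6 ± 2.13 RPKM in controls (SD, n = 3 each). Its log2 fold change was -0.03 with a 95% interval from -0.30 to 0.25, and the groups overlapped. Mmp1b, Mmp8 and Mmp7 had at most 4 reads in any library. Mmp3 and Mmp10 are close relatives in sequence, and reads that fit both cannot be told apart in these values, so the separate levels of this pair are uncertain.

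**Figure D3:**
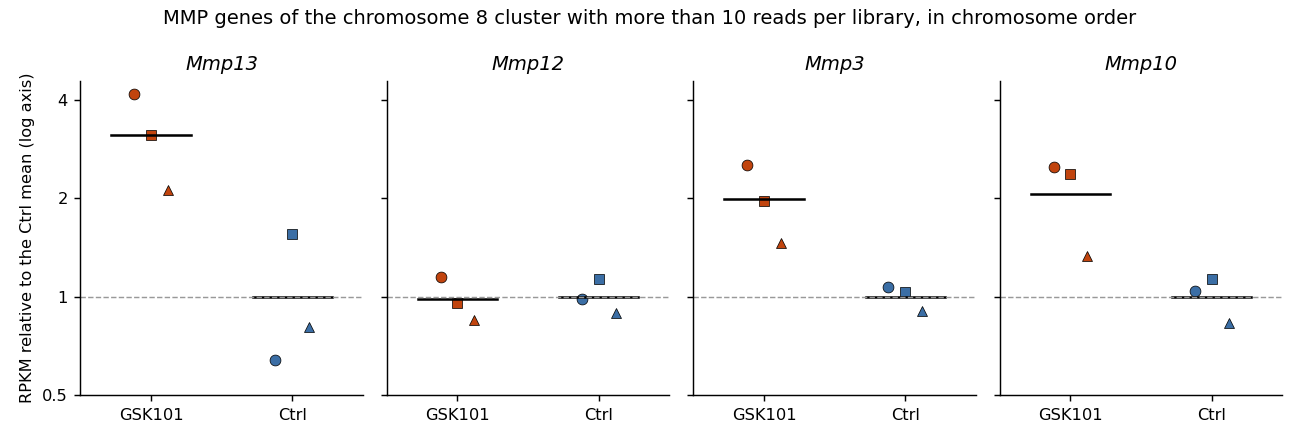
RPKM of Mmp13, Mmp12, Mmp3 and Mmp10 in each library relative to the gene's control mean, on a log axis, GSK101 left and Ctrl right; each symbol is 1 library, each solid line the mean of 3 and the dashed line the control mean. Mmp13, Mmp3 and Mmp10 had means of 3.13, 1.98 and 2.06 times the control mean with GSK101, and Mmp12 had 0.984 times.

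The sequence upstream of 4 of these cluster genes is shown because all 4 hold the same short elements. AP-1, a dimer of Fos and Jun proteins, binds sites of the form TGANTCA, and the TATA box TATAAA positions the polymerase. Each line gives the 250 bases before the start of the gene in RefSeq on the GRCr8 build, read 5′ to 3′ on the strand of the gene, with every TGANTCA and TATAAA in capitals.
Mmp3 (chr8:12925031-12925280, plus strand): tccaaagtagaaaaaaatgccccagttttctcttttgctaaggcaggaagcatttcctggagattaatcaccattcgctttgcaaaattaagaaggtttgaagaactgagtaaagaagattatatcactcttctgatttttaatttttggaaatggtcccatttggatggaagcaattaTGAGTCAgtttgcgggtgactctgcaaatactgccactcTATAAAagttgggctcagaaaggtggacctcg
Mmp13 (chr8:12782579-12782828, plus strand): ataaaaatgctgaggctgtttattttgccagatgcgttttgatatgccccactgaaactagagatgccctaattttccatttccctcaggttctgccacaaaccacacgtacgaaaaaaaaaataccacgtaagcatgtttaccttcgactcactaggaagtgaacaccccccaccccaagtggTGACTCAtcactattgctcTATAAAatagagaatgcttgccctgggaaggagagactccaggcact
Mmp10 (chr8:12974457-12974706, plus strand): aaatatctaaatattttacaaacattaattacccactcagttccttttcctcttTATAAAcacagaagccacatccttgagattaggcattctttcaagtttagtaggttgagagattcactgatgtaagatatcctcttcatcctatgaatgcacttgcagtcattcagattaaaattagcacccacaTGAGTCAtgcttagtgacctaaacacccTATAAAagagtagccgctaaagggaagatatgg
Mmp12 (chr8:12866402-12866651, plus strand): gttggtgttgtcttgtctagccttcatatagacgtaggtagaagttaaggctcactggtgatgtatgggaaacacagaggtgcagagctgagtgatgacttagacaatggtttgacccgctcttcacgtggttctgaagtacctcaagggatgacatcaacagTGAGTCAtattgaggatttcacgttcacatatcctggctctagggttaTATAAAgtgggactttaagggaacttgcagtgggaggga

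All 4 windows hold 1 TGANTCA, whose first base lies 71 bases before the start in Mmp3, 66 in Mmp13, 61 in Mmp10 and 87 in Mmp12. Each is followed by a TATAAA that begins 32 bases before the start in Mmp3, 47 in Mmp13, 33 in Mmp10 and 39 in Mmp12, and Mmp10 has another TATAAA 196 bases before the start. TGANTCA reads the same on both strands apart from its central base, so both strands are covered, and TATAAA was searched on the strand of the gene. Among 33469 rat promoters of the same length 6.34% held TGANTCA, 8.06% held TATAAA and 0.693% held both. Of the 7 cluster genes 5 had both elements, the 4 above and Mmp7, which was near 0 in all libraries. Mmp12, which was not called, carries the same pair of elements as Mmp3 and Mmp10. Whether these elements play a part in any change was not tested. A match of letters describes the sequence and says nothing of binding.

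Mmp19, which encodes a secreted protease of basement membrane and cartilage proteins, had 37.3, 38.0 and 32.9 RPKM in GSK101 replicates 1, 2 and 3, against 30.9, 32.4 and 29.3 RPKM in control replicates 1, 2 and 3. Every GSK101 library was above every control library, though the lowest of them exceeded the highest control by little. The ratio of the means was 1.17 and the log2 fold change 0.22 (95% interval 0.07 to 0.37, adjusted p = 0.0364). The call was lost without GSK101 replicate 1 or 2 or control replicate 1 or 3, without the filter, in limma without the trend, with median-ratio scaling (adjusted p = 0.0628) and with quantile normalization (adjusted p = 0.0750), and the adjusted p ran from 0.0114 to 0.118 over the alternatives. Mmp19 lies on chromosome 7 from 3216497 to 3224201 on the plus strand.

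The most abundant proteases of the set did not pass the test. Mmp2 encodes a gelatinase that fibroblasts make constitutively, and its RPKM was 199, 195 and 155 in GSK101 replicates 1, 2 and 3, against 193, 175 and 168 in control replicates 1, 2 and 3. The groups overlapped, and the log2 fold change was 0.03 with a 95% interval from -0.20 to 0.26 (adjusted p = 0.85). Mmp14 encodes a membrane-bound collagenase that, with the Timp2 product as a docking partner, activates the Mmp2 product at the cell surface. It had 92.5, 98.0 and 86.4 RPKM in GSK101 replicates 1, 2 and 3, against 105, 91.5 and 92.6 RPKM in control replicates 1, 2 and 3. Its log2 fold change was -0.06, with a 95% interval from -0.21 to 0.10 (adjusted p = 0.54). Mmp2 lies on chromosome 19 from 15542765 to 15570611 on the minus strand and Mmp14 on chromosome 15 from 33074441 to 33083655 on the plus strand. Changes within these intervals cannot be told from none at this spread between libraries.

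Mmp11 encodes a stromelysin-named protease of stromal cells that cuts few matrix proteins. It had 1.03, 0.733 and 0.928 RPKM in GSK101 replicates 1, 2 and 3, against 1.07, 1.05 and 1.24 RPKM in control replicates 1, 2 and 3. The groups did not overlap, but the gap was small and the log2 fold change of -0.22 did not pass (95% interval -0.49 to 0.06, adjusted p = 0.21) on 49 to 81 reads per library. Mmp9, a gelatinase typical of neutrophils, macrophages and osteoclasts, had 0.128, 0.140 and 0.103 RPKM in GSK101 replicates 1, 2 and 3, against 0.125, 0.130 and 0.101 RPKM in control replicates 1, 2 and 3. That is 14 to 20 reads per library, the groups overlapped, and no difference was detectable at this depth (exact two-sided permutation p = 0.6). Beside it, the 4 neutrophil markers in the table summed to at most 0.202 RPKM with GSK101 and 0.189 RPKM in controls, with no more than 8 reads for any of them in a library. The 5 osteoclast markers summed to at most 0.953 RPKM with GSK101 and 0.832 RPKM in controls. All 8 macrophage markers were in the table, and they summed to 11.5 to 16.0 RPKM with GSK101 and 10.1 to 14.0 RPKM in controls. Mmp11 lies on chromosome 20 from 13670066 to 13678089 and Mmp9 on chromosome 3 from 161413298 to 161421520, both on the plus strand. Of 4 tested macrophage markers 1 was called, Cd14, which was higher. Cd68, Mrc1 and C1qa were not called, and the part of the macrophage markers in the levels of Mmp12 was not tested.

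The 3 inhibitor genes moved in different directions. Timp1, which many cells make after injury or cytokine stimulation, had 1669, 1476 and 1547 RPKM in GSK101 replicates 1, 2 and 3, against 1379, 1334 and 1392 RPKM in control replicates 1, 2 and 3. All GSK101 libraries were above all control libraries. The ratio of the means was 1.14 and the log2 fold change 0.19 (95% interval 0.07 to 0.32, adjusted p = 0.0297). The call held with quantile normalization but not with median-ratio scaling (adjusted p = 0.0607), and it was lost without the filter, in limma without the trend, and without GSK101 replicate 1 or 3 or any 1 of the control replicates. Over the alternatives the adjusted p of Timp1 ran from 0.00446 to 0.111.

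Timp2 encodes the inhibitor that links the Mmp14 and Mmp2 proteins at the cell surface. It had 757, 736 and 689 RPKM in GSK101 replicates 1, 2 and 3, against 869, 885 and 875 RPKM in control replicates 1, 2 and 3. The control libraries lay close together and each GSK101 library was below them. Timp2 fell by 0.27 in log2 units (SE 0.05, limma adjusted p = 0.00399), to 727 ± 34.8 RPKM with GSK101, against 876 ± 8.18 RPKM in controls (SD, n = 3 each). Its position is chromosome 10 from 107338465 to 107386072 on the minus strand.

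Timp3 encodes the inhibitor that stays bound to the matrix and also blocks aggrecanases. It had 21.9, 20.7 and 20.2 RPKM in GSK101 replicates 1, 2 and 3, against 30.8, 27.1 and 28.9 RPKM in control replicates 1, 2 and 3. Timp3 showed the largest decrease among the 8 tested genes of the set: it fell by 0.46 in log2 units (SE 0.06, limma adjusted p = 0.00130), with a 1.38-fold ratio of the control mean to the GSK101 mean. It lies on chromosome 7 from 23544215 to 23594133 on the minus strand, within Syn3, and Timp1 lies on the X chromosome from 1364786 to 1369384 on the minus strand, within Syn1. Both host genes run on the opposite strand, share no exon bases with the inhibitor genes and were below 0.3 RPKM on average in both groups. The summed smooth muscle and pericyte markers were lower with GSK101 as well, as given above, and their part in the falls of Timp2 and Timp3 was not tested.

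The upstream sequences of the inhibitor genes are shown for contrast with those of Mmp3 and its neighbours, in the same form and from the same RefSeq build.
Timp1 (chrX:3771123-3771372, minus strand): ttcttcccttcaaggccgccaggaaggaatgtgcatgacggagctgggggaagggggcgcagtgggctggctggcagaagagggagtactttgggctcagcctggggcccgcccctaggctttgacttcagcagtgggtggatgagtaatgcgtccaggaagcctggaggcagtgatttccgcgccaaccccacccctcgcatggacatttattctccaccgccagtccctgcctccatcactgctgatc
Timp2 (chr10:104089215-104089464, minus strand): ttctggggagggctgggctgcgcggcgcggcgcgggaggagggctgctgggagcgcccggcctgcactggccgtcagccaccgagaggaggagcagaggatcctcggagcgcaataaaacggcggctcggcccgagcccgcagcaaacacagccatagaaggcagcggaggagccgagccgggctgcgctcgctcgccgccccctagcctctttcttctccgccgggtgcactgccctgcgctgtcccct
Timp3 (chr7:19459559-19459808, minus strand): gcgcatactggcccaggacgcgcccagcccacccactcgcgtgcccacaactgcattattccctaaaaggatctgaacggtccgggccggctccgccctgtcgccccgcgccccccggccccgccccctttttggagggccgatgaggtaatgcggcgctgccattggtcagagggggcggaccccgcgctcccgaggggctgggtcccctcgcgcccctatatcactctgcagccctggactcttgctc
None of the 3 windows holds TGANTCA or TATAAA, as spelled here, in the 250 bases shown. Only exact matches were searched, so near matches, such as tgagtaa in the Timp1 window, were not counted. Their share of G and C bases was 61.2% for Timp1, 72.0% for Timp2 and 69.6% for Timp3, against 38.8% for Mmp3, 36.0% for Mmp10, 44.4% for Mmp13 and 45.6% for Mmp12. Of the 10 genes of the set 6 had a promoter in the RefSeq table, Mmp3, Mmp11, Mmp13 and the 3 TIMPs. The Mmp11 window, not printed, had 66.0% G and C bases and also held neither element. The contrast is thus with the cluster genes printed above and not with MMP genes at large.

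Because the inhibitor genes moved apart, the make-up of the TIMP transcripts differed between the groups while their sum overlapped. The 3 TIMPs together had 2448, 2233 and 2256 RPKM in GSK101 replicates 1, 2 and 3, against 2278, 2246 and 2295 RPKM in control replicates 1, 2 and 3. Timp1 made up 68.2%, 66.1% and 68.6% of that sum with GSK101, against 60.5%, 59.4% and 60.6% in controls. Timp2 made up 31.5 ± 1.29% with GSK101 and 38.6 ± 0.74% in controls, and Timp3 0.906 ± 0.018% with GSK101 and 1.27 ± 0.07% in controls (SD, n = 3 each). The shares did not overlap between the groups for any of the 3 inhibitors. They add up to the whole sum, of which Timp1 and Timp2 made up nearly all. The rise of the Timp1 share and the fall of the Timp2 share are thus not separate results. Such shares are taken within a library, so scaling between libraries by a constant does not move them.

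**Figure D4:**
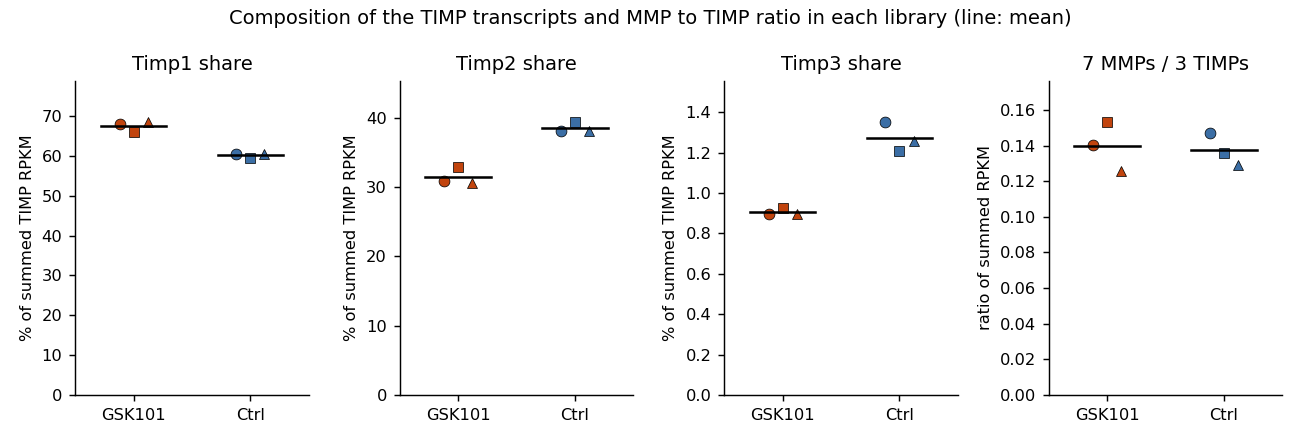
Share of each inhibitor in the summed TIMP RPKM, in percent, and the ratio of the summed RPKM of the 7 MMPs to that of the 3 TIMPs, GSK101 left and Ctrl right; each symbol is 1 library and each line the mean of 3. The Timp1 share was 66.1% to 68.6% with GSK101 and 59.4% to 60.6% in controls, and the ratio to all 3 TIMPs overlapped between the groups.

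Summed over the 7 proteases and the 3 inhibitors, the MMP to TIMP ratio of transcripts was 0.140, 0.153 and 0.126 in GSK101 replicates 1, 2 and 3, against 0.147, 0.136 and 0.129 in control replicates 1, 2 and 3. These ratios overlapped, and their sums are carried by Mmp2 (56.5 ± 1.61% of the MMP sum with GSK101 and 57.2 ± 0.36% in controls) and Timp1. Mmp3 made up 3.05 ± 0.58% of the MMP sum with GSK101 and 1.60 ± 0.08% in controls (SD, n = 3 each). These are ratios of transcripts and not of enzyme activity.

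Single ratios were taken for each of the 7 proteases to each of the 3 inhibitors and between the inhibitors, 24 in all. The ratio to Timp2 did not overlap and was higher with GSK101 for 6 of the 7 proteases, and so was the ratio to Timp3 for 6 of the 7. In both cases Mmp11 was the exception. Of all other genes tested, 63.2% had a ratio to Timp2 that was higher without overlap and 3.19% one that was lower. For Timp3 these shares were 78.9% higher and 1.12% lower. Both denominators were themselves lower with GSK101, so 6 of 7 is not read as a trait of the proteases. The 7 also include Mmp9 and Mmp13, which were under the filter, while the shares cover tested genes only. Against Timp1, the ratios of Mmp3 and Mmp13 did not overlap and were higher with GSK101, those of Mmp11 and Mmp14 did not overlap and were lower, and those of Mmp2, Mmp9 and Mmp19 overlapped. Of all other genes tested, 11.1% were higher and 38.0% lower without overlap relative to Timp1. The ratio of Mmp2 to Timp2 was 0.251 ± 0.022 with GSK101 and 0.204 ± 0.016 in controls, and that of Mmp14 to Timp2 0.127 ± 0.006 with GSK101 and 0.110 ± 0.009 in controls (SD, n = 3 each). The ratio of Mmp3 to Timp3 was 0.472 ± 0.107 with GSK101 and 0.173 ± 0.017 in controls, and that of Timp1 to Timp3 74.7 ± 2.92 with GSK101 and 47.4 ± 2.31 in controls. An exact two-sided permutation test of a ratio that does not overlap gives p = 0.1, the smallest that 3 against 3 allow, and 0.126 after Benjamini-Hochberg adjustment over the 24, so no single ratio could pass.

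The GSK101 libraries differed among themselves in the same sense for many of these genes. GSK101 replicate 3 had the lowest value of the GSK101 libraries for 8 of the 10 genes, and it was the lowest for 37.4% of all genes tested. GSK101 replicate 1 had the highest value for 7 of the 10, and for 35.2% of all genes tested. Without GSK101 replicate 3 the log2 fold change of Mmp3 was 1.08, and without GSK101 replicate 1 it was 0.71, with the call kept in both cases.

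The genes whose profile over the 6 libraries was nearest to that of Mmp3 were Tmem154, Il13ra2, Mt1, Pde4b and Fos. Their root mean square difference from Mmp3 was 0.07 to 0.11 in log2(RPKM + 0.5), taken relative to each gene's control mean. The added 0.5 understates the change of low genes, so the likeness of Il13ra2 holds on this scale only. Il13ra2 averaged 0.918 ± 0.359 RPKM with GSK101 and 0.187 ± 0.043 RPKM in controls (SD, n = 3 each). Il13ra2 encodes a decoy receptor of interleukin 13, Mt1 a metallothionein, Pde4b a phosphodiesterase that breaks down cyclic AMP, and Fos a subunit of AP-1. Fos averaged 3.22 ± 0.55 RPKM with GSK101 and 1.48 ± 0.25 RPKM in controls (SD, n = 3 each). Nearest to Timp3 were Chsy3, Npdc1, Susd2, Fblim1 and Nid1, with differences of 0.03 to 0.04. Nid1 encodes nidogen, a basement membrane protein, and averaged 147 ± 6.39 RPKM with GSK101 and 208 ± 12.4 RPKM in controls. These nearest genes were chosen by their values, and the likeness is a description over 6 libraries of 2 groups.

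Outside the set, 12 of 16 other MMP and TIMP genes were in the table and 6 were tested, of which 1 was called higher and 2 lower. Among all genes tested, 20.1% were called higher and 11.9% lower. The median log2 fold change of the 6 was -0.05, beside 0.03 for all genes tested. The 1 higher was Mmp10, described above, and leaving out 1 library gave 0 to 1 higher and 1 to 2 lower. Mmp23, which encodes a membrane-anchored protease, averaged 10.1 ± 0.68 RPKM with GSK101 and 15.8 ± 1.21 RPKM in controls, and fell by 0.62 on the log2 scale (adjusted p = 0.000920). Mmp17, which encodes a protease held at the cell surface by a lipid anchor, fell by 0.40 on the log2 scale (adjusted p = 0.0481) on 79 to 105 reads with GSK101 and 126 to 171 reads in controls. Mmp17 was called in 8 of 17 alternatives and lost its call in each that left out a library except GSK101 replicate 3. Mmp16 and Mmp24 did not pass, at -0.02 and -0.08 on the log2 scale. Timp4 had 6 reads in each GSK101 library and 8 to 10 in the control libraries.

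Genes that switch on, anchor or clear MMPs were mixed: of 11 tested 5 were higher and 2 lower, with a median log2 fold change of 0.09. The shares over all genes tested were 20.1% higher and 11.9% lower. Cd44, a hyaluronan receptor that can hold MMPs at the cell surface, averaged 147 ± 1.86 RPKM with GSK101 and 113 ± 4.34 RPKM in controls (SD, n = 3 each; adjusted p = 0.000647). Plat, the tissue plasminogen activator gene, rose by 0.30 on the log2 scale and Pcsk7, a proprotein convertase gene, by 0.32. Pcsk5, also a proprotein convertase gene, averaged 1.85 ± 0.22 RPKM with GSK101 and 4.02 ± 0.25 RPKM in controls, a log2 fold change of -0.94. The other called genes of the list, named after their values were seen, were Plau and Lrp1, higher by 0.49 and 0.54 on the log2 scale, and Pcsk6, a further proprotein convertase gene. Pcsk6 averaged 7.37 ± 0.61 RPKM with GSK101 and 10.2 ± 1.20 RPKM in controls, a log2 fold change of -0.44 (adjusted p = 0.0107). Plau encodes urokinase, which makes plasmin, and Lrp1 a receptor that removes MMP and TIMP complexes from outside the cell. Reck, which encodes a membrane-bound MMP inhibitor, did not pass, with a log2 fold change of 0.08 and a 95% interval from -0.12 to 0.28.

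Of 8 genes for collagen uptake and breakdown by other routes 1 was higher and 3 were lower, with a median log2 fold change of -0.12. For all genes tested, 20.1% were higher and 11.9% lower. Itga11, a collagen-binding integrin subunit, averaged 74.3 ± 4.01 RPKM with GSK101 and 135 ± 7.29 RPKM in controls (SD, n = 3 each; adjusted p = 0.000107). Mfge8, a bridging protein in the uptake of cells and collagen, and Ctsk, the cathepsin K gene, fell by 0.43 and 0.26 on the log2 scale. Mrc2, a receptor that takes up cleaved collagen, rose by 0.42 on the log2 scale (adjusted p = 0.0383), and its call was lost in 8 of 18 alternatives, among them those without GSK101 replicate 1 or 2 or control replicate 2 or 3.

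Of 12 tested genes for matrix proteins that MMPs cut, 3 were higher and 2 lower, with a median log2 fold change of -0.08, and leaving out 1 library gave 1 to 3 higher and 1 to 2 lower. With the gene length trend removed, 2 were higher and 8 lower. In the main fit, 20.1% of all genes tested were higher and 11.9% lower. Spp1, the osteopontin gene, averaged 220 ± 19.8 RPKM with GSK101 and 109 ± 11.5 RPKM in controls, and Eln, the elastin gene, 77.2 ± 4.86 RPKM with GSK101 and 174 ± 11.6 RPKM in controls (SD, n = 3 each). Fn1, the fibronectin gene, and Dcn, the decorin gene, rose by 0.30 and 0.41 on the log2 scale with adjusted p-values of 0.0400 and 0.0417. The groups overlapped for Fn1, with 951 RPKM in GSK101 replicate 3 and 968 RPKM in control replicate 1. The call of Fn1 was lost without GSK101 replicate 1 or 2 or control replicate 2 or 3. It was also lost with the gene length trend removed, where its log2 fold change was 0.08. The call of Dcn was lost without any 1 library other than GSK101 replicate 3. Both calls were lost without the filter, with median-ratio scaling and in limma without the trend. That of Dcn was lost with quantile normalization and robust moderation as well, in all in 10 of 18 alternatives. The collagen gene Col1a1, named after its values were seen, averaged 1637 ± 140 RPKM with GSK101 and 1903 ± 135 RPKM in controls and did not pass (adjusted p = 0.0652).

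Of 13 tested transcription factor genes known to act on MMP promoters 5 were higher and 1 was lower, with a median log2 fold change of 0.18. Over all genes tested, 20.1% were higher and 11.9% lower. Fosl1, an AP-1 subunit gene, averaged 22.3 ± 1.42 RPKM with GSK101 and 12.1 ± 1.44 RPKM in controls (SD, n = 3 each; adjusted p = 0.000504), and Fos is given above. Sp1, a general activator, rose by 0.37 on the log2 scale, but the call was lost with the gene length trend removed (value 0.16, adjusted p = 0.0985). Jund, another AP-1 subunit gene, fell by 0.44 on the log2 scale. Leaving out 1 library gave 4 to 6 higher and 1 lower. The title of the series names c-Fos, so the direction of Fos is not independent evidence here.

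**Figure D5:**
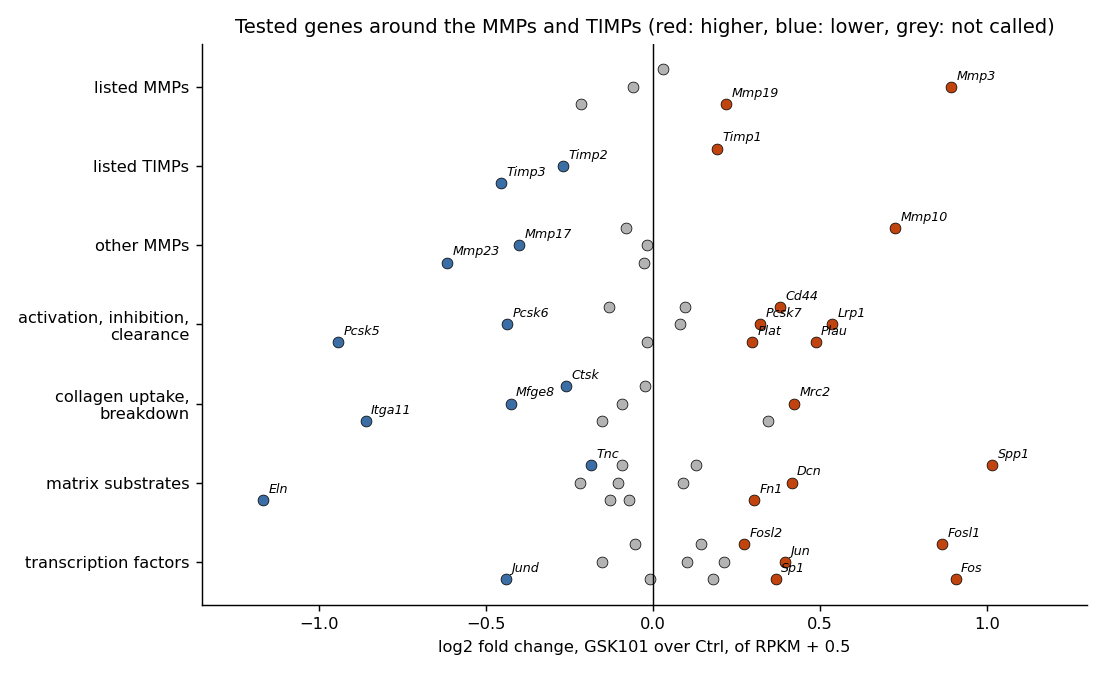
Log2 fold change of RPKM + 0.5, GSK101 over Ctrl, for the tested genes of each list, 1 point per gene (red: called higher, blue: called lower, grey: not called; vertical offsets only separate the points). Calls lie on both sides of 0 in every list except the listed MMPs, of which 2 were called and both were higher.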

How the data were processed

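The authors deposited 1 table of RPKM values for 6 libraries, with each gene's exons, strand and length. Multiplied by gene length, the deposited RPKM values summed to 1000000 per library, and 100% of the products were whole multiples of 1 step, to within 0.01, which was taken as 1 read. Even read numbers made up 71.3% to 74.7% of genes with 1 to 10 reads, so both mates of a pair may be in the counts. Tools in the submitters' processing notes, with no role stated, are STAR 2.5.3a, Trimmomatic 0.36, edgeR 3.12.1, Subread 1.5.1 and featureCounts, and the build is Rnor_6.0. Per the labels' protocols, libraries were stranded and carried molecular identifiers; the sources used here do not give whether duplicates were collapsed, strand was used or multi-mapping reads were kept.

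Genes were tested in R 4.3.3 with limma 3.58.1 on log2(RPKM + 0.5); the model held the group alone, with a mean-variance trend and two-sided Benjamini-Hochberg adjusted p-values. Fold changes on this scale understate the change of low genes. Single values were tested with exact permutation in SciPy 1.17.1. The fit was also run on simulated reads whose spread and number of changed genes were set in advance, so that run does not measure its error rate in these data. To look for a library deposited again, replicates were compared by chi-square on halved reads, which allows for mates counted separately; the value was 2.36 to 7.84 per gene, where counting noise gives 1, so no pair was merged. The genes and lists were chosen with earlier results of these data known. Mmp1, Mmp20, Mmp25, Mmp27 and Col1a2 were not analysed here. From each list the text names up to 4 called genes with the smallest adjusted p, and others only where it says so. Alternatives covered pseudocounts, filters, scalings, variance models, limma-voom, gene length, a replicate block and each library left out. Promoters are RefSeq sequences on GRCr8 and were matched by symbol.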

Additional observations from a re-analysis of the deposited data

How the results depend on the processing

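Of the 10 genes, the calls of Mmp3, Timp2 and Timp3 held under each of the 18 alternatives, with log2 fold changes of 0.71 to 1.08, -0.31 to -0.23 and -0.51 to -0.41. The number called higher was 3, but 1 with median-ratio scaling and 1 in limma without the trend, where Mmp19 and Timp1 were lost, and 1 to 2 when a library was left out. With no filter beyond a value above 0 it was 2, as Mmp13 was gained while Mmp19 and Timp1 were lost (adjusted p = 0.0724 and 0.0897), and so was Mmp10 (0.0600). The number called lower was 2 throughout. Genes of the other lists called lower numbered 10, and 17 with the gene length trend removed; the cause was not tested. Over all genes, 2570 were called higher and 1518 lower, against 2936 and 1117 after rescaling to TPM, 2165 and 1947 with median-ratio scaling, 1983 and 2141 with quantile normalization and 1877 and 2137 with the gene length trend removed. These settings moved the median of all genes by -0.06 to 0.04 on the log2 scale. Mmp2 changed sign in 5 and Mmp14 in 1 of the 18 and neither was called in any. With the replicate number as a block 2508 genes were higher and 1437 lower and the calls of the 10 genes were the same; same-numbered libraries correlated at -0.06 to 0.05, and not every library correlated best with its own number, so the numbers were not taken to pair them. The difference of the log2 ratio of summed MMPs to summed TIMPs was 0.02, and -0.05 to 0.10 when a library was left out. Depth limits Mmp9, Mmp11 and Mmp13.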

Other observations

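Some genes under the filter, from the MMP, TIMP and macrophage lists, had groups that did not overlap and are named here after their values were seen. Mmp28, which encodes an epithelial protease, averaged 0.114 ± 0.071 RPKM with GSK101 and 0.213 ± 0.004 RPKM in controls (SD, n = 3 each), on 5 to 14 reads per GSK101 library and 15 reads in each control library. Timp4, an inhibitor best known from the heart, averaged 0.0797 ± 0.0021 RPKM with GSK101 and 0.119 ± 0.015 RPKM in controls. Cd163, a scavenger receptor of macrophages, averaged 0.0792 ± 0.0414 RPKM with GSK101 and 0.0158 ± 0.0053 RPKM in controls, on 9 to 24 reads with GSK101 and 2 to 4 reads in controls. The other macrophage markers under the filter, Csf1r, Ptprc and Adgre1, overlapped between the groups and had lower means with GSK101. They averaged 0.299, 0.419 and 0.238 RPKM with GSK101 and 0.308, 0.493 and 0.335 RPKM in controls. None of these genes was tested.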
